A study of Mus musculus with 6 samples.

Results

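The genes described here were 8 transcription regulators that sit at the output side of the circadian clock: the PAR bZIP activators *Dbp*, *Tef* and *Hlf*, their competitor *Nfil3*, the repressors *Ciart*, *Bhlhe40* and *Bhlhe41*, and the nuclear receptor *Rora*. They were chosen by name, as 8 of 22027 genes in the expression table, and all 8 were among the 12322 genes that passed the filter on low counts. RNA was taken from gastrocnemius (GAS) muscle of 14-week-old female mice on regular chow, with 3 WT and 3 mKD mice and 1 library per mouse. The mKD mice carried *Tet3* fl/fl and the HSA-Cre79 transgene, in which Cre is driven by the human α-skeletal actin promoter. This design aims to delete *Tet3* in muscle fibres and not in the other cells of the tissue. The study proposes that TET3 left in the muscle could come from fibres with incomplete deletion, from other cells, or both. The WT mice were littermates that had the floxed *Tet3* alleles without Cre. The mice lived under a light–dark cycle, but neither the hour at which muscle was taken nor the feeding state then is given in the sources used here. The labels give a time of 48 h for all 6 libraries without saying what it refers to.

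In the core clock the transcription factors CLOCK and BMAL1 (encoded by *Arntl*) act at E-boxes in DNA and drive their own repressors, the PER and CRY proteins. The same E-boxes drive DBP, TEF and HLF, which activate genes through a second element, the D-box, where NFIL3 represses. CIART, BHLHE40 and BHLHE41 also feed back on CLOCK and BMAL1, and RORα activates *Arntl* through ROR elements at which the REV-ERB receptors (*Nr1d1* and *Nr1d2*) repress. In skeletal muscle this system times the use of glucose, lipid and protein over the day, so that the level of its output genes depends on the hour of sampling.

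The bases upstream of the member genes are shown because the E-box is the element through which these genes are placed in the clock. RefSeq start-site windows on GRCm38.p6 matched 7 of the 8 members. The 250 bases before each start were searched on both strands for the E-box CACGTG, the D-box in the forms TTATGTAA, TTATGCAA and TTACGTAA, the ROR element TAGGTCA and the cAMP response element TGACGTCA, and no letters of one motif fell within another. Capitals mark the motif found, and each run is written 5′ to 3′ on the strand of its gene.
Ciart chr3:95882242-95882369 (minus strand): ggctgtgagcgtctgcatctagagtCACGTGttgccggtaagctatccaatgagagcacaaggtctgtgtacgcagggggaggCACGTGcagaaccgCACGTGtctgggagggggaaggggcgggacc
Tef, first start chr15:81802521-81802576 (plus strand): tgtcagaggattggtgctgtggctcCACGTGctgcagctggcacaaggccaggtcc
Tef, second start chr15:81811251-81811306 (plus strand): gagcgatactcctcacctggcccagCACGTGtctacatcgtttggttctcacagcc
Bhlhe41 chr6:145865543-145865598 (minus strand): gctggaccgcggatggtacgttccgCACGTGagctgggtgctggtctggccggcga
Hlf chr11:90390918-90390951 (minus strand): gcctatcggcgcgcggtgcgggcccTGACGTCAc
Nfil3 chr13:52981040-52981076 (minus strand): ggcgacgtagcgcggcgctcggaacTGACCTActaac
Dbp chr7:45705147-45705246 (plus strand, no motif): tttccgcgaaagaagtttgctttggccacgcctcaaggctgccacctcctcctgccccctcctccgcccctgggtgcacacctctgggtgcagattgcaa

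*Ciart* held 3 E-boxes, which began 116, 58 and 44 bases before its start. *Tef* held 1 E-box at each of its 2 starts, 127 and 138 bases upstream, and *Bhlhe41* held 1 at 153 bases. An E-box was found in 6.02% of all 32851 windows. *Hlf* had a cAMP response element 9 bases before its start (1.55% of windows) and *Nfil3* had a ROR element, on the opposite strand, at 12 bases (2.23% of windows). No D-box was found at any member (1.61% of windows), and the windows of *Dbp* and *Rora* held none of the 4 motifs, which says only that these letters are not in the 250 bases searched. A match of letters is a description of sequence, and binding was not measured.

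The values below are normalised counts, that is reads divided by 1 scaling factor per library, from libraries of 16219227 to 32148270 reads. *Tet3*, the targeted gene, was at 594, 536 and 708 in WT1, WT2 and WT3, and at 425, 318 and 472 in mKD1, mKD2 and mKD3. All 3 mKD libraries lay below all 3 WT libraries, and the log2 difference was −0.60 (SE 0.18, limma adjusted p = 0.18). Libraries mKD1 and mKD3 stood apart from the rest in markers of Schwann cells and nerve. The summed count of 12 Schwann cell and nerve markers was 2413 to 2490 in WT, 39067 in mKD1, 1843 in mKD2 and 12078 in mKD3. The sum of 8 adipocyte markers was 4338 to 4898 in WT and 9761, 5989 and 8237 in mKD1, mKD2 and mKD3, with 5 of the 8 (*Adipoq*, *Cidec*, *Lep*, *Plin1* and *Retn*) at 0 in 1 or more libraries. The sum of 10 endothelial markers was 14648 to 17153 in WT and 8943 to 11357 in mKD, and that of 12 muscle fibre markers was between 4607080 and 5650450 in all 6 libraries. Values without mKD1 and mKD3 are therefore given beside the member results, and with 1 mKD library left that fit assumes that mKD2 would vary as the WT libraries do. In whole muscle, fewer cells of a type and less RNA per cell cannot be told apart.

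*Dbp* (chr7:45705088-45710203, plus strand), the PAR bZIP activator that is classically used as a read-out of the clock, was the member with the largest log2 difference between genotypes over all 6 libraries. WT1, WT2 and WT3 had normalised counts of 1483, 1544 and 1234, and mKD1, mKD2 and mKD3 had 2494, 2486 and 1894. Every mKD library was above every WT library. The values were alike in mKD1, where the Schwann cell markers were raised, and mKD2, where they were not. The lowest mKD value was in mKD3, where those markers were also raised. The part of those markers in the *Dbp* difference was not tested. The mean was 1420 ± 164 (SD, n = 3) in WT and 2291 ± 344 (SD, n = 3) in mKD, a ratio of 1.61. The log2 difference was 0.68 (SE 0.15, 95% interval 0.34 to 1.03), which passed the cut-off used for all genes here, a 1.2-fold change with an unadjusted limma p under 0.05. After adjustment over all genes the limma p was 0.13, and with DESeq2 on the recovered reads the adjusted p was 0.0052, the lowest over the alternatives tried, which reached 0.43. The two-sided exact permutation p was 0.10, the smallest that 3 against 3 libraries can give. *Dbp* kept its side of the cut-off when any single library was left out (log2 difference 0.59 to 0.82), and it was 0.81 with mKD2 as the only mKD library. *Dbp* shares 539 of its 2993 exonic bases with *Sphk2* on the opposite strand. The library kit marks strand, no source used here says whether the counting used it, and *Sphk2* itself had a log2 difference of −0.11.

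*Tef* (chr15:81802421-81826863, plus strand), a close relative of *Dbp* that also binds D-boxes, was the most abundant member per unit of length and also rose past the cut-off. Normalised counts were 6759, 8379 and 6978 for WT1 to WT3 against 10847, 8831 and 9043 for mKD1 to mKD3. The groups did not overlap, but WT2 came close to mKD2. The log2 difference was 0.38 (SE 0.13, 95% interval 0.07 to 0.68, limma adjusted p = 0.21), with means of 7372 ± 879 and 9574 ± 1108 (SD, n = 3 each) and a ratio of 1.30. *Tef* lost the cut-off without WT1 (log2 difference 0.32), WT3 (0.34) or mKD1 (0.28). Each time the unadjusted limma p (0.058 to 0.084) failed, and the difference stayed past 1.2-fold. The log2 difference was 0.27 with mKD2 as the only mKD library.

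*Hlf* (chr11:90336536-90390895, minus strand), the third PAR bZIP activator, gave no such difference. It was at 374, 336 and 205 in WT and at 296, 225 and 344 in mKD. The groups overlapped fully, with the lowest value in WT3. The log2 difference was −0.06 (SE 0.26), and its 95% interval of −0.66 to 0.54 includes changes of the size seen in *Tef* in either direction (limma adjusted p = 0.93). With mKD2 as the only mKD library the log2 difference of *Hlf* was −0.39. Whether *Hlf* differed from *Dbp* and *Tef* in its response was not tested. On the log2 scale and relative to the WT average, the mean of the 3 PAR bZIP genes was 0.10, 0.17 and −0.26 in WT1 to WT3 and 0.46, 0.23 and 0.31 in mKD1 to mKD3.

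*Nfil3* (chr13:52967209-52981073, minus strand), the bZIP repressor that competes at D-boxes, varied more between mice than between genotypes. WT mice had 299, 341 and 782 and mKD mice 790, 383 and 435 normalised counts. WT3 and mKD1 were the high libraries, at about the same level, and the other 4 lay between 299 and 435. The log2 difference was 0.24 (SE 0.40, 95% interval −0.69 to 1.17, limma adjusted p = 0.79), and it was −0.08 without mKD1 and 0.67 without WT3. With mKD2 as the only mKD library the log2 difference was −0.17. The residual SD of *Nfil3*, 0.66 on the log2 scale, was higher than that of 88.0% of tested genes, against a median of 0.24.

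**Figure D1:**
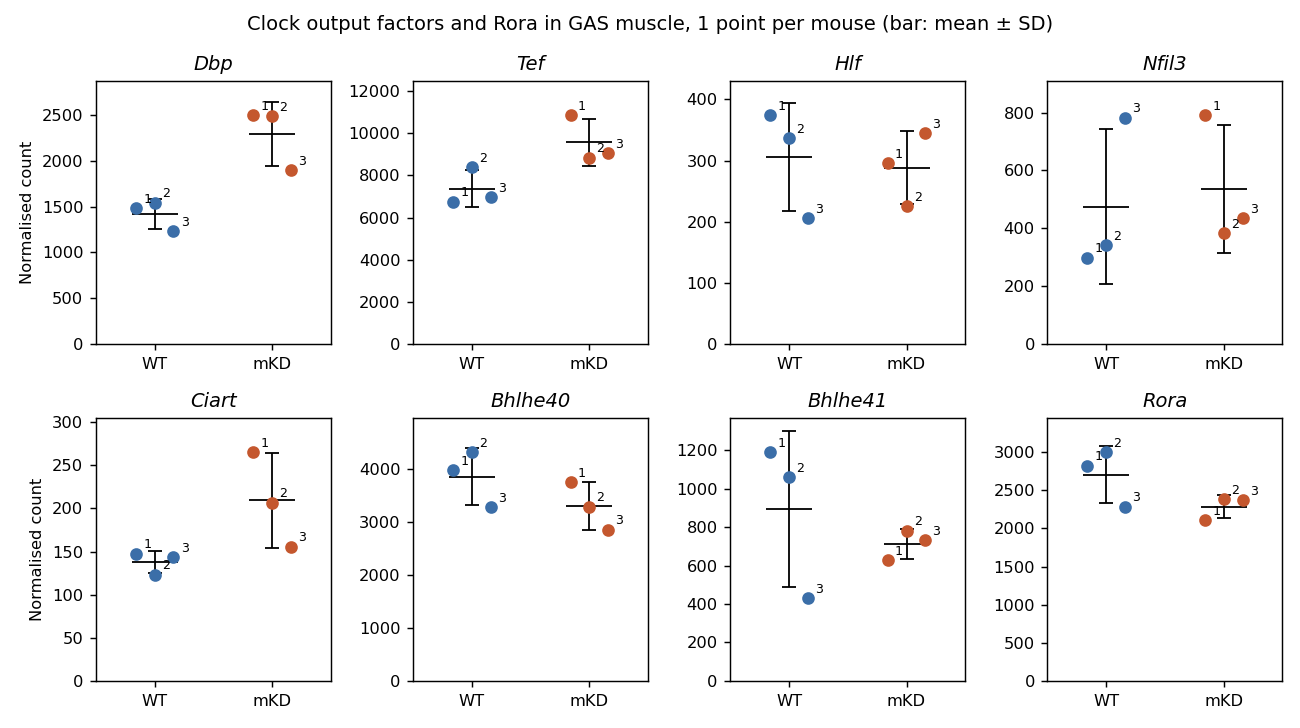
Normalised count of each of the 8 genes (vertical axes, each from 0) in the 3 WT and 3 mKD libraries, 1 numbered point per mouse, with the mean and SD as bars. The mKD points of *Dbp*, *Tef* and *Ciart* all lie above the WT points, while the WT3 point of *Hlf*, *Bhlhe41*, *Bhlhe40* and *Rora* is the lowest WT point and that of *Nfil3* the highest.

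*Ciart* (chr3:95878503-95882251, minus strand), a repressor of CLOCK and BMAL1 and the member with 3 E-boxes shown above, was the third gene past the cut-off. It was at 147, 123 and 143 in WT and at 265, 207 and 156 in mKD. The WT libraries were close together, and the mKD libraries spread from just above WT in mKD3 to well above it in mKD1. The means were 138 ± 12.8 and 209 ± 54.9 (SD, n = 3 each), a ratio of 1.52, and the log2 difference was 0.57 (SE 0.22, 95% interval 0.05 to 1.08, limma adjusted p = 0.24). Leaving out any library but mKD3 took *Ciart* out of the cut-off through its p alone (unadjusted limma p 0.051 to 0.13). The log2 differences, 0.38 to 0.62, stayed past 1.2-fold. With mKD2 as the only mKD library the log2 difference of *Ciart* was 0.58.

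*Bhlhe40* and *Bhlhe41*, which encode the basic helix-loop-helix repressors DEC1 and DEC2, did not move with *Ciart*. *Bhlhe40* (chr6:108660629-108666925, plus strand) was at 3976, 4320 and 3279 in WT and at 3752, 3291 and 2854 in mKD, with a log2 difference of −0.23 (SE 0.15, limma adjusted p = 0.45). The groups overlapped, since WT3 was below mKD1 and mKD2. The log2 difference of *Bhlhe40* was −0.22 with mKD2 as the only mKD library. *Bhlhe41* (chr6:145858243-145865558, minus strand) was at 1191, 1061 and 431 in WT and at 627, 781 and 731 in mKD. WT3 held its lowest value and WT1 its highest, so that all 3 mKD libraries lay inside the WT range. Its log2 difference was −0.20 (SE 0.35, 95% interval −1.02 to 0.61, limma adjusted p = 0.79), and −0.06 with mKD2 as the only mKD library. *Bhlhe41* shares 1280 of its 6720 exonic bases with the predicted gene *Gm43909* on the opposite strand.

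*Rora* (chr9:68653786-69388246, plus strand), which encodes RORα, an activator at ROR elements and a regulator of lipid use in muscle, showed lower but overlapping values in mKD. WT mice had 2823, 3001 and 2283 and mKD mice 2109, 2380 and 2372 normalised counts. WT1 and WT2 were above all mKD libraries, and WT3 was not. The log2 difference was −0.23 (SE 0.13, 95% interval −0.54 to 0.07, limma adjusted p = 0.37). With mKD2 as the only mKD library the log2 difference of *Rora* was −0.17. The related receptor gene *Rorb* was at 0 in 5 libraries and at 4.69 in mKD3 and was not tested.

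One WT library decided how the last 3 genes were called. Without WT3, *Bhlhe40* (log2 difference −0.34), *Bhlhe41* (−0.66) and *Rora* (−0.35) passed the cut-off as lower in mKD. Their limma adjusted p were 0.27, 0.15 and 0.20, and the unadjusted limma p of *Bhlhe40* was 0.0499. In this setting 2304 of 12322 tested genes passed. *Dbp* (0.59) stayed past the cut-off as higher, and *Tef* and *Ciart* no longer did. WT3 was the lowest WT library for 5 of the 8 members and the highest for *Nfil3*. It was also the lowest library for the adipocyte markers on the log2 scale. The part of those markers in these calls was not tested.

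Of the 8 members, 3 rose past the cut-off and 0 fell, where 17.8% of all tested genes passed it, 8.31% as higher and 9.51% as lower. The same 3 members, *Dbp*, *Tef* and *Ciart*, were those whose WT and mKD libraries did not overlap, a property of 24.8% of all tested genes. None of the 8 reached a limma adjusted p under 0.05, a level reached by 0.0162% of tested genes, while DESeq2 called *Dbp* alone at that level and 4.34% of all genes. With edgeR no member reached it either, and the lowest edgeR adjusted p was 0.13, for *Dbp*. The median log2 difference was 0.09 over the members and 0.01 over all tested genes. Leaving out 1 library gave 1 to 4 members past the cut-off (1 without WT1 and 1 without mKD1, in both cases *Dbp*), and leaving out mKD1 and mKD3 gave 1, again *Dbp*.

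**Figure D2:**
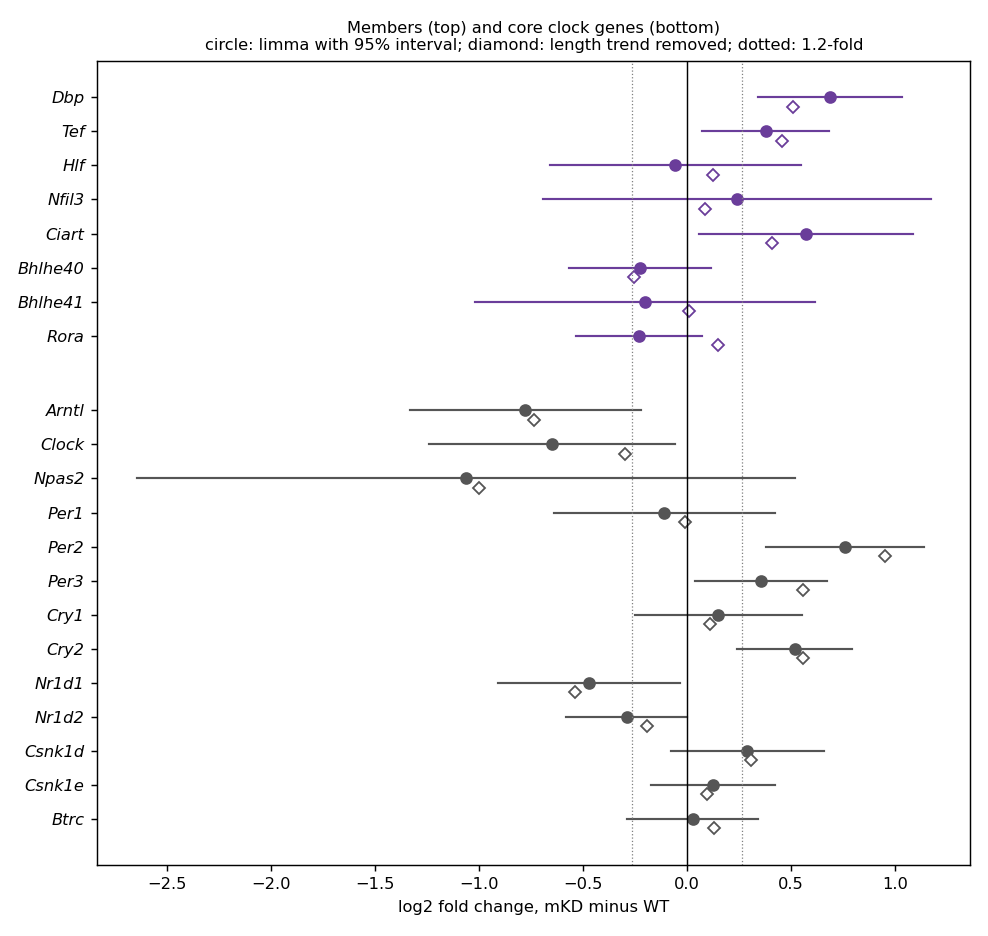
log2 fold change, mKD minus WT (horizontal axis), for the 8 members (top) and 13 tested core clock genes (bottom), with circles and lines for the limma estimate and its 95% interval, diamonds for the value after the length trend was removed, and dotted lines at 1.2-fold. *Dbp*, *Tef* and *Ciart* lie to the right with intervals above 0, and the diamond of *Rora* lies on the other side of 0 from its circle.

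Transcript length moved with the genotype difference across the whole table. The log2 difference fell with the length of the longest annotated transcript (Spearman's rho −0.45 across the 12315 genes with a length, which as genes are no replicates), and a lowess fit removed this trend (rho −0.01 afterwards). *Dbp*, *Ciart* and *Nfil3* are short, at 1837, 1939 and 2026 nucleotides, and *Rora* is long, at 10878. With the trend removed, *Dbp* was at 0.51 and *Tef* at 0.45 and both stayed past the cut-off, whereas *Ciart* at 0.40 did not. *Rora* turned from −0.23 to 0.15, *Hlf* from −0.06 to 0.12 and *Bhlhe41* from −0.20 to 0.01, and none of these passed the cut-off on either scale. *Tet3* itself was at −0.22 with the trend removed and no longer past the cut-off. The part of length in these differences was not tested.

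Levels of different genes can be compared only per length, here as normalised count per kilobase of the longest transcript. In WT the order was *Tef* (1674 ± 200), *Bhlhe40* (1239 ± 170), *Dbp* (773 ± 89.4), *Rora* (248 ± 34.4), *Nfil3* (234 ± 132), *Bhlhe41* (146 ± 66.3), *Ciart* (71.1 ± 6.59) and *Hlf* (54.1 ± 15.7; SD, n = 3 each). The ranges of the first 4 did not touch each other, and from *Rora* downwards each gene's range overlapped that of the next. In mKD *Dbp* (1247 ± 187) stood above *Bhlhe40* (1060 ± 144) in all 3 libraries, with overlapping ranges, and *Tef* remained first (2174 ± 252). Among the PAR bZIP genes *Tef* was thus the most and *Hlf* the least abundant in both genotypes.

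The other genes of the clock were read from a list of 15, of which 13 were tested. Of these, 3 rose past the cut-off, namely the repressors *Per2*, *Cry2* and *Per3*, and 4 fell, namely the activators *Arntl* and *Clock* and the REV-ERB genes *Nr1d1* and *Nr1d2*. For all tested genes the shares were 8.31% higher and 9.51% lower. *Arntl* was at 303, 248 and 416 in WT and at 177, 150 and 231 in mKD, without overlap, and its log2 difference was −0.78 (SE 0.24, limma adjusted p = 0.19). *Per2* was at 250, 366 and 329 in WT and at 513, 537 and 532 in mKD, without overlap (log2 difference 0.76, SE 0.16, limma adjusted p = 0.13). The members that rose are all E-box-driven in the textbook scheme. They rose together with *Per2* and *Per3* while the mRNA of their activators was lower. Other E-box genes did not: *Hlf*, driven by E-boxes in the same scheme, was at −0.06, and *Bhlhe41*, with an E-box shown above, at −0.20. Of 7 E-box-driven clock genes, 3 rose and 2 fell past the cut-off.

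*Cry2* was at 1139, 1424 and 1197 in WT and at 1784, 1712 and 1863 in mKD, again without overlap (log2 difference 0.52, limma adjusted p = 0.14). *Per3* had a log2 difference of 0.36, *Clock* of −0.65, *Nr1d1* of −0.47 and *Nr1d2* of −0.29. *Nr1d1*, which is driven by E-boxes like *Dbp*, went the other way from it and was low in mKD1 (2103) and mKD3 (2551) but inside the WT range of 3488 to 3933 in mKD2 (3609). *Per1* (−0.11), *Cry1* (0.15), *Csnk1d* (0.29), *Csnk1e* (0.12), *Btrc* (0.03) and *Npas2* (−1.06, at a mean of 11.8 counts in WT) did not pass the cut-off. With the length trend removed 3 genes were higher and 2, *Arntl* and *Nr1d1*, were lower, and with mKD2 as the only mKD library 3 of the 13 passed.

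**Figure D3:**
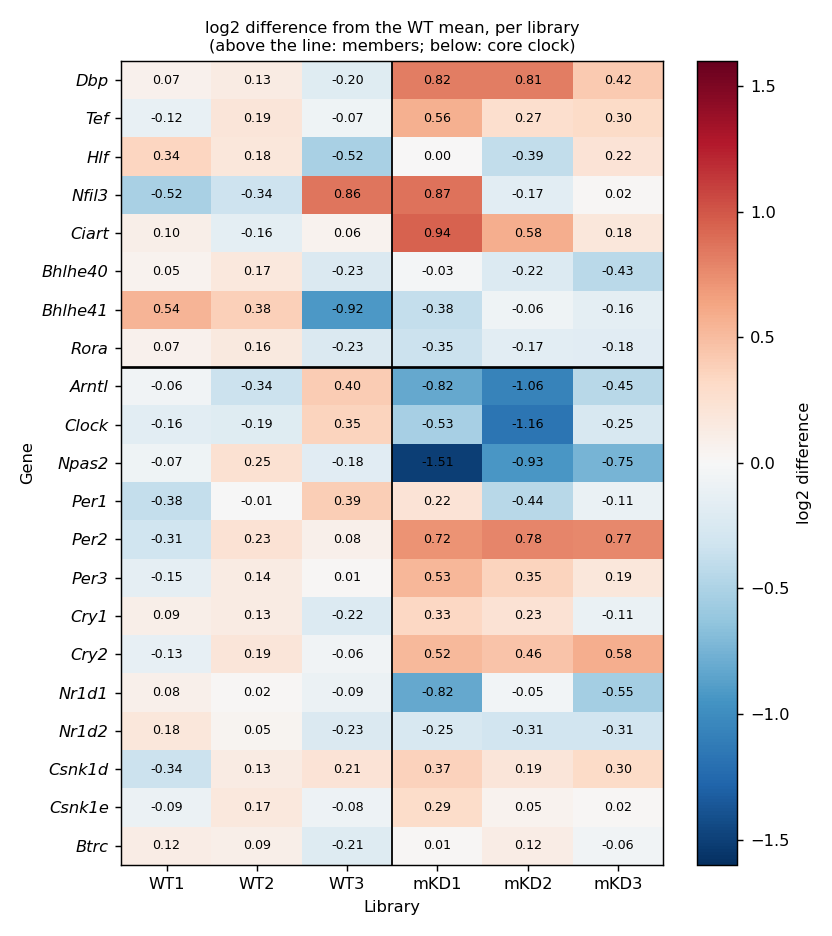
log2 difference of each library (columns) from the WT mean for the 8 members (above the line) and 13 core clock genes (below it), with red for higher and blue for lower and the value printed in each cell. *Dbp* is at 0.82, 0.81 and 0.42 and *Arntl* at −0.82, −1.06 and −0.45 in mKD1 to mKD3, while *Nfil3* is at 0.86 in WT3 and 0.87 in mKD1 and at or below 0.02 in the other libraries.

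*Arntl*, *Clock* and *Npas2*, which the textbook scheme places under ROR elements, lay on average, as a log2 difference relative to WT, at −0.10, −0.10 and 0.19 in WT1 to WT3 and at −0.96, −1.05 and −0.48 in mKD1 to mKD3. *Rora*, which acts on these elements, was at 0.07, 0.16 and −0.23 and at −0.35, −0.17 and −0.18 in the same order. *Npas2*, among the genes averaged, had only 3.46, 5.65 and 6.57 counts in mKD1 to mKD3. Alone it was at −1.51, −0.93 and −0.75 there. The windows of *Arntl*, *Clock* and *Npas2* did not hold the letters of the ROR element in the 250 bases searched.

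Across the 6 libraries the members fell into patterns that are given as descriptions, since 6 points that include the genotype difference cannot be read as independent. *Dbp* ran with *Tef* (Pearson's r 0.85) and *Ciart* (0.85), and its most similar core clock gene was *Per3* (0.87) and its most opposed *Arntl* (−0.96). *Tef* and *Ciart* were also closest to *Per3* among core clock genes (0.95 and 0.82). A second set followed the spread between mice: *Bhlhe41* ran with *Rora* (0.82) and *Hlf* (0.76) and against *Nfil3* (−0.91), and *Nfil3* was closest to *Per1* (0.85). *Hlf*, *Rora* and *Bhlhe40* were closest to *Nr1d2* (0.60, 0.84 and 0.79) and *Bhlhe41* to *Btrc* (0.86). Among 10348 genes with a mean count of at least 50, the closest to each member were *Zfp523* for *Dbp*, *Gemin6* for *Tef*, *Plekho1* for *Hlf*, *Wrnip1* for *Nfil3*, *Toporsos* for *Ciart*, *Clcn1* for *Bhlhe40*, *Glce* for *Bhlhe41* and *Arl6ip6* for *Rora*, each with r of at least 0.98. Each is the highest of 10348 values of r over 6 libraries, so its size cannot show a link between the genes.

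Genes further downstream were read from lists of rhythmic outputs. Of 13 tested genes that cycle in many tissues, 2 rose and 0 fell past the cut-off. That is 15.4%, near the 17.8% of all tested genes. *Por*, the reductase that supplies cytochrome P450 enzymes, was at 510, 617 and 719 in WT and at 836, 717 and 792 in mKD, with an overlap of WT3 and mKD2 (log2 difference 0.36, limma adjusted p = 0.27). The other was *Fkbp5*, a co-chaperone induced by glucocorticoids, at 870, 1205 and 728 in WT and at 2670, 931 and 3744 in mKD. It was high in mKD1 and mKD3 and at the WT level in mKD2 (95% interval of the log2 difference 0.12 to 2.29, limma adjusted p = 0.24). *Usp2* (0.35) and *Coq10b* (−0.37) did not pass. Of 12 clock outputs known from muscle, 16.7% passed the cut-off, again near the share of all tested genes. *Tcap*, a titin-binding protein of the sarcomere, rose (73515, 71790 and 87744 in WT, 146614, 131345 and 111911 in mKD, log2 difference 0.74, limma adjusted p = 0.13). *Tead1* fell (941, 653 and 984 in WT, 393, 674 and 371 in mKD, log2 difference −0.87, limma adjusted p = 0.18). Its mKD2 value lay inside the WT range, and the log2 difference was −0.33 with mKD2 as the only mKD library. *Pnpla2* and *Slc2a4* did not pass. With the length trend removed the calls of *Tead1* (−0.51) and *Por* (0.28) were lost, while *Usp2* (0.38) and *Coq10b* (−0.51) passed.

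Glucocorticoids set the level of several clock genes in peripheral tissues, and a list of 17 genes that respond to them moved with the same 2 libraries that held the Schwann cell signal. Relative to WT its mean log2 value was −0.27, −0.13 and 0.40 in WT1 to WT3 and 0.71, −0.32 and 0.61 in mKD1 to mKD3. One of the 17, *Fkbp5*, passed the cut-off, while *Foxo1* (0.87), *Zbtb16* (0.65) and *Pik3r1* (0.75) did not. That is 5.88% of the list, below the 17.8% of all tested genes. *Nfil3* was high in WT3 and mKD1, where this list was raised. It was not high in mKD3, at 435, where the list was raised as well. Relative to the WT mean, *Dbp* was at 0.82, 0.81 and 0.42 on the log2 scale in mKD1 to mKD3. The part of the glucocorticoid signal in the member results was not tested.

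**Figure D4:**
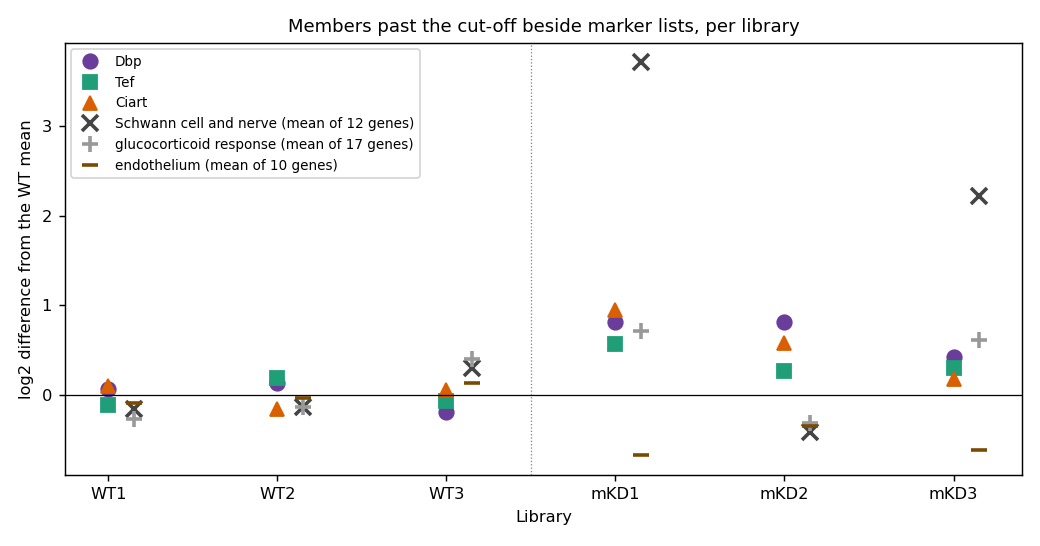
log2 difference from the WT mean (vertical axis) per library for *Dbp*, *Tef* and *Ciart* and for the means of 12 Schwann cell, 17 glucocorticoid response and 10 endothelial genes. The 3 members are above 0 in all 3 mKD libraries, and the Schwann cell and glucocorticoid lists are above 0 in mKD1 and mKD3 and below 0 in mKD2 (−0.42 and −0.32).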

How the data were processed

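GAS muscle of 3 WT and 3 mKD mice was analysed by poly(A)-selected, strand-specific RNA-seq, and the study calls the mice biological replicates. The deposited table holds for each gene and library a normalised signal, which the authors obtained in Partek Flow as reads over 1 factor per library, on GRCm38 (mm10) per the submitters' processing notes. Aligner and counter: not given in the sources used here. Group means, log2 fold changes (WT over mKD), standard errors, Wald statistics, p-values and adjusted p-values, computed by the authors with DESeq2, were not used. No other sample columns were left aside.

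Whole reads were recovered by dividing each library by its smallest step (0.807 to 1.58), and 100% of values came out whole within 1e-04. In WT2 a read is worth 1.003, close to 1, so that its normalised values are close to reads. The main test was limma 3.58.1 with a trend (R 4.3.3) on log2(value + 1), on which changes of low genes are understated, with genotype as the only term, two-sided and Benjamini-Hochberg adjusted over 12322 genes passing edgeR's filter on low counts. The cut-off was 1.2-fold with an unadjusted p under 0.05. Alternatives were TMM and upper-quartile scaling, no filter or a mean of at least 50, pseudocounts of 0.5 and 4, edgeR 4.0.16 and DESeq2 1.42.0 on recovered reads, a lowess fit (span 0.3) of the length trend, a replicate block, each library left out, and mKD1 and mKD3 left out. The fits were tested on simulated data. Coordinates and lengths are from GENCODE M21 (GRCm38).

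Named genes were the 8 members, *Tet3*, the core clock list, up to 4 genes of smallest p in each other list, and the closest gene and core clock gene to each member. *Sphk2* and *Gm43909* were named because they overlap members, after values were seen. A few genes of the clock lists are not reported here, and counts leave them out. Members and lists were chosen with earlier results of these data known.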

Additional observations from a re-analysis of the deposited data

How the results depend on the processing

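Of 288 recomputed values, 225 kept their direction and side of the threshold (counts: within 1.5 times), and *Dbp* kept both throughout. The cause of the other changes was not tested. With the length trend removed, genes past the 1.2-fold cut-off went from 2196 to 1294, muscle outputs from 2 to 1 and glucocorticoid genes from 1 to 5, genes at an adjusted p under 0.05 from 2 to 0 (2229 genes had an unadjusted limma p under 0.05), *Tet3* to −0.22, *Ciart* to 0.40, *Hlf* to 0.12, *Bhlhe41* to 0.0081 and *Rora* to 0.15. With mKD1 and mKD3 left out the cut-off was passed by 1193 genes, 1 member and 3 (of 7) core clock genes, an adjusted p under 0.05 by 4 genes, and *Tef* was at 0.27, *Ciart* at 0.58 and *Nfil3* at −0.17. DESeq2 called 535 genes at an adjusted p under 0.05 and 5 glucocorticoid genes past the cut-off, and edgeR, with either scaling, 4 glucocorticoid genes and 1 tissue-wide output.

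No source used here says whether same-numbered libraries were paired, and the main test did not pair them. The correlations of their deviations were 0.055, −0.051 and −0.076, which cannot show whether the mice were paired. The replicate block gave 0 genes at an adjusted p under 0.05, and 4 glucocorticoid genes and 1 tissue-wide output past the cut-off. *Tef*, at 0.38, did not pass there, with an unadjusted limma p of 0.053.

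Leaving out each library in turn gave 1 to 4 members, 4 to 5 core clock genes, 0 to 4 tissue-wide outputs, 2 to 5 muscle outputs, 0 to 8 glucocorticoid genes and 0 to 4 genes at an adjusted p under 0.05. Log2 differences ranged from 0.28 to 0.47 for *Tef*, −0.32 to 0.11 for *Hlf*, −0.077 to 0.67 for *Nfil3*, 0.38 to 0.76 for *Ciart*, −0.34 to −0.13 for *Bhlhe40*, −0.66 to 0.069 for *Bhlhe41*, −0.35 to −0.15 for *Rora*, and −0.72 to −0.44 for *Tet3*. The number of mice, 3 a group, limits the precision of all these values.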
